A study of Mus musculus with 2 samples.

Results

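The replication-dependent histone genes of the mouse were followed in single Kit+ bone marrow cells as the set of all gene rows whose symbol starts with Hist1h, Hist2h, Hist3h or Hist4h. The rule names 67 of the 32285 gene rows and picks each by its symbol only. The set itself was chosen with earlier results of these data known. They comprise 6 linker histone genes (H1), 18 H2A, 18 H2B, 12 H3 and 13 H4 genes. The Hist1 cluster on chromosome 13 holds 54 of them, between positions 21715763 and 23934851 of GRCm38, in the coordinates of GENCODE M21. The Hist2 cluster on chromosome 3 holds 10, the Hist3 cluster on chromosome 11 holds 2 and the Hist4 locus on chromosome 6 holds 1.

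The series has 1 control library and 1 library labelled Utx deleted, both made from mouse bone marrow sorted for CD45.2 and Kit, 10 weeks after transplantation, with 10x Genomics 3' chemistry and barcoded antibodies. UTX is the product of Kdm6a, an enzyme that removes methyl groups from histone H3. The labels give no strain, allele, Cre driver, inducing agent or number of animals for either library, and no detail of the recipients. The second is called the Utx-labelled library here. With 1 library per group there is no replicate check, no test was possible, and each difference below is one between these 2 libraries. Intervals are exact 95% intervals and cover counting error only.

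Histone proteins package DNA into nucleosomes, built from pairs of the core histones H2A, H2B, H3 and H4, with the linker histone H1 bound where DNA enters and leaves. Replication-dependent histone genes are transcribed mainly in S phase, when new DNA needs new nucleosomes. Their messenger RNAs normally end in a short stem-loop, bound by the protein SLBP, in place of a poly(A) tail, and they are degraded when replication stops. A library primed on poly(A) therefore counts only polyadenylated or internally primed copies of these RNAs, so the levels below are captured molecules and not total histone mRNA. In the bone marrow the cells that divide are stem cells, progenitors and early neutrophil precursors, and the last neutrophil stages do not divide.

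The control library kept 7011 cells with a median of 12367 UMIs (unique molecular identifiers, counted molecules) and the Utx-labelled library kept 7206 cells with a median of 11816.5, with 13 cell barcodes in common. Kdm6a itself was at 110 UMIs per 1000000 gene UMIs (CPM) in the control library and 103 CPM in the other, so its 3' counts do not check the label, and the name follows the label only. Kit was at 108 and 91.0 CPM, and the CD45 gene Ptprc at 459 and 474 CPM. Each library carries 2 hashtag antibodies of unstated meaning (3253 and 3506 control cells, 3163 and 3553 cells of the other library). Values per hashtag show how far cells of 1 library vary, and are not taken for replicates.

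Short histone stem-loops are shown here because they mark which annotated transcripts reach the processed 3' end and how the families differ. The 16-base pattern searched was GG, any 2 bases, CTTTT, any base, AG, any 2 bases and CC, on the transcript strand of the GENCODE M21 transcripts, and 44 of the 67 members hold it. In the lines below, 5′ to 3′ from GRCm38 transcripts and written as DNA, capitals mark the loop. The Hist1h1e form is the commonest, in 26 members of the H1, H2A, H2B and H3 families. The Hist1h4d form is in 7 members, all of them H4, and the Hist1h3c form in 6 members of the H1, H2B and H3 families, while the Hist2h2ac form is in that H2A gene alone.
Hist1h1e: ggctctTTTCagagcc
Hist1h4d: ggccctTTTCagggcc
Hist1h3c: ggctctTTTAagagcc
Hist2h2ac: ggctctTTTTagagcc

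Histone UMIs were abundant and concentrated in few genes. The members summed to 340583 UMIs in the control library, 3149 CPM (interval 3138 to 3160), and to 364698 UMIs in the Utx-labelled library, 3189 CPM (interval 3178 to 3199). Of the 67 members, 62 had at least 100 UMIs over both libraries. Another 3 had between 1 and 99 (Hist1h1t, a testis-type H1, with 4 and 4, Hist1h2bq with 2 and 2, and Hist2h2aa2 with 2 and 0), and Hist1h2aa and Hist1h2ba, the testis-type H2A and H2B, had 0. The 5 members with most UMIs held 64.6% of the sum in the control library and 64.7% in the other.

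The largest of these was Hist1h1b (ENSMUSG00000058773, chr13:21779883-21780625, minus strand), which encodes the linker histone H1f5. It was at 884 CPM in the control library and 720 CPM in the Utx-labelled library. Hist1h1e (ENSMUSG00000051627, chr13:23620629-23622558, minus strand), the linker histone H1f4, was at 434 and 369 CPM. Both linker genes were thus lower in the Utx-labelled library, and the 3 core genes of the group were higher there. Hist1h2ap (ENSMUSG00000094777, chr13:21833026-21833507, minus strand), an H2A gene, was at 340 and 522 CPM. Hist1h4d (ENSMUSG00000061482, chr13:23581598-23582735, plus strand), an H4 gene, was at 190 and 223 CPM. Hist1h2ae (ENSMUSG00000069272, chr13:23570517-23571220, minus strand), another H2A gene, was at 187 and 229 CPM.

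How surely a UMI belongs to 1 histone gene differs between members, because the coding sequences are close copies. All 90-base windows of the last 300 bases of each member's longest transcript were looked up in every GENCODE M21 transcript. Every window was unique in 21 of the 62 members with 100 UMIs, and fewer than 50% were unique in 27. Hist1h2ap had 0% unique windows and shares them with 14 other members, so its count is uncertain as a count of that gene. Hist1h1e also had 0%, since annotated transcripts of Hist1h2be and of another annotated gene share windows of its 3' end. The windows of Hist1h1a, Hist1h1b, Hist1h1c, Hist1h1d and Hist1h4d were all unique and those of Hist1h2ae 92.9% unique. The linker and core counts and sums, and their ratio in some stages, are therefore repeated below for the 26 members with at least 90% unique windows. Other results are not repeated for them. Bases further upstream than the last 300 were not looked up, so UMIs counted there may still be shared in these members.

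No member differed by 2-fold between the libraries over all cells. Of the 62 members with at least 100 UMIs, 0 were 2-fold higher and 0 were 2-fold lower in the Utx-labelled library, against 1.39% and 5.36% of the 13558 genes with that many UMIs. At 1.5-fold 1 member was higher and 0 were lower, against 3.17% and 10.6% of genes. The log2 ratios of the members ran from -0.58 to 0.62, with a median of 0.082 where the median of all genes tested was -0.11. Above 0 lay 39 members, against 29.5% of all genes tested. A counting interval wholly above 0 was found for 23 members and one wholly below for 14. The share of all genes with such intervals is not given, so these interval counts are not read as a result about the members. In both hashtag populations 29 members were above 0 and 16 below, and in 17 the hashtags had opposite signs. TMM scaling is a factor that adds 0.12 to every log2 ratio and puts the median of all genes at 0.011. With it 49 members were above 0, against 51.9% of all genes. Past 2-fold were 0 members in either direction, against 1.7% of genes higher and 4.52% lower.

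The member past 1.5-fold was Hist1h2ap, with 36809 control UMIs and 59697 in the other library, a 1.53-fold higher level (log2 0.62, interval 0.60 to 0.64). Control cells of the 2 hashtags were at 343 and 337 CPM, and Utx-labelled cells at 492 and 495 CPM. The hashtag values of each library lay close together and the libraries did not overlap. Within each hashtag, however, the log2 ratio was under 1.5-fold, at 0.52 and 0.55. The ratio over all cells also holds 204 control and 451 Utx-labelled barcodes with both hashtags, and 48 and 39 with none. Their part in its passing 1.5-fold was not tested. Next came 2 low genes, the H3 gene Hist2h3b (183 and 258 UMIs, log2 0.41, interval 0.14 to 0.70) and the H2A gene Hist1h2ad (373 and 521 UMIs, log2 0.40, interval 0.21 to 0.60). Both share most of their windows with other genes, with 13.3% and 40.8% unique.

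The lowest ratio was that of the linker gene Hist1h1a (H1f1; ENSMUSG00000049539, chr13:23763666-23764406, plus strand), with 4558 control UMIs and 3224 in the Utx-labelled library, a level 1.49-fold lower (log2 -0.58, interval -0.65 to -0.51). Control cells of the 2 hashtags were at 45.3 and 40.2 CPM and Utx-labelled cells at 25.03 and 31.8 CPM, again without overlap. Hist2h3c1, an H3 gene with 0% unique windows, had 136 and 102 UMIs (log2 -0.49, interval -0.88 to -0.11). Hist1h3d, an H3 gene with all windows unique, had 1012 and 773 UMIs (log2 -0.47, interval -0.61 to -0.33), with hashtag ratios of -0.21 and -0.77.

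**Figure D1:**
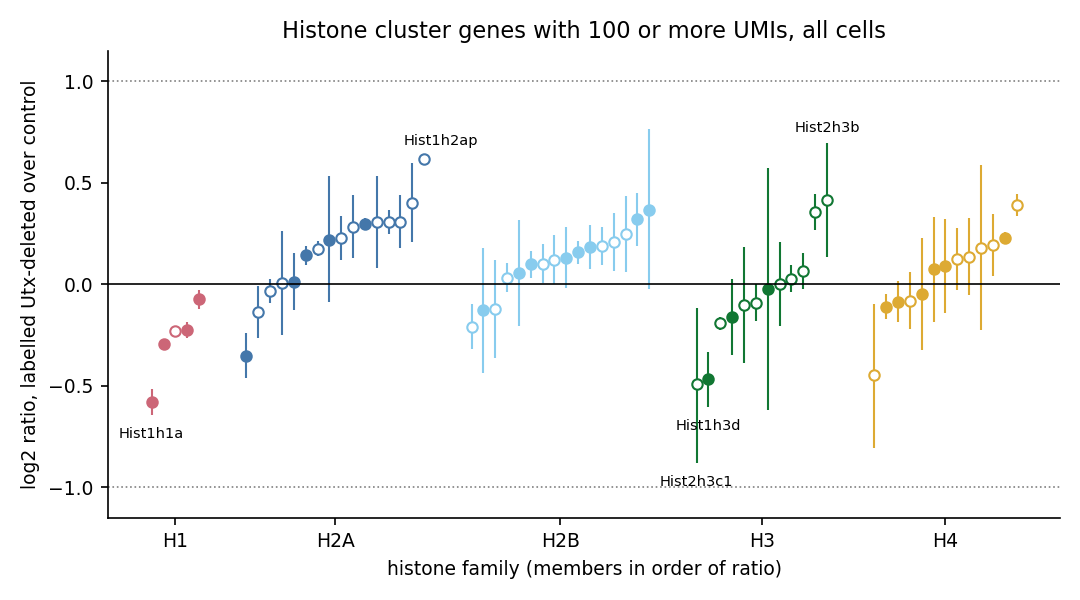
Log2 ratio of the Utx-labelled library over control (vertical axis) for the 62 histone members with at least 100 UMIs, grouped by family and ordered by ratio within it. Bars are exact 95% counting intervals, filled points have at least 90% unique windows, open points fewer, and dotted lines mark 2-fold. All 5 H1 genes lie below 0, and Hist1h2ap, at 0.62, is the highest point.

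The families went different ways. The 5 linker H1 genes with enough UMIs were all lower in the Utx-labelled library, in both hashtag populations and with intervals below 0, at a median log2 ratio of -0.23, where 29.5% of all genes tested lay above 0. Hist1h1c (H1f2) had 11154 and 10079 UMIs (log2 -0.23), Hist1h1d (H1f3) 7647 and 7684 (log2 -0.074), Hist1h1b -0.30 and Hist1h1e -0.23. With TMM scaling Hist1h1d turned to 0.051 and the other 4 stayed below 0. Of the 57 core genes 39 were above 0 and 18 below, and in both hashtags 29 were above and 11 below. H2A and H2B genes were mostly above 0, with 13 of 16 in each and medians of 0.22 and 0.13. H4 genes had 8 of 13 above 0 (median 0.090) and H3 genes 5 of 12 (median -0.058). With TMM scaling 48 of the 57 core genes were above 0, against 51.9% of all genes. By family these were 14 H2A, 14 H2B, 8 H3 and 12 H4 genes, so most H3 genes were then above 0.

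Among the 26 members with at least 90% unique windows the 4 linker genes were below 0 (median -0.26) and 14 of 22 core genes above 0 (median 0.082), with all 3 H3 genes of this group below 0. Summed, linker H1 UMIs went from 1534 CPM in the control library to 1273 CPM in the other (log2 -0.27, interval -0.28 to -0.26). Core UMIs went from 1615 to 1916 CPM (log2 0.25, interval 0.24 to 0.26). With the same stage weights in both libraries the H1 ratio was -0.13 and the core ratio 0.35, and with TMM scaling they were -0.14 and 0.37. Without Hist1h2ap the core ratio was 0.13, and over the members with unique ends it was 0.18 for core and -0.28 for H1. Linker genes gave 48.7% of the control histone UMIs and 39.9% of those in the Utx-labelled library. The sum over all members hides this split: its log2 ratio was 0.018, and it was -0.050 and -0.023 in the hashtag populations alone, 0.14 with TMM scaling and -0.011 with each cell thinned to 2000 UMIs.

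Promoters of the linker genes are printed because the 5 linker genes were lower together, and Hist1h2ae is added as a unique core gene that was higher. RefSeq promoters (GRCm38.p6, 250 bases before to 50 after the start) matched 61 members, and the last 150 bases before or at the start are shown 5′ to 3′ on the gene's strand. Capitals mark matches, on either strand, to the CCAAT box CCAAT, the TATA box TATAAA, the H1 box AAACACA and the octamer ATTTGCAT, none of which overlap each other here. The positions are chr13:21780626-21780775 for Hist1h1b, chr13:23622559-23622708 for Hist1h1e, chr13:23738657-23738806 for Hist1h1c, chr13:23554882-23555031 for Hist1h1d, chr13:23763518-23763667 for Hist1h1a and chr13:23571221-23571370 for Hist1h2ae.
Hist1h1b: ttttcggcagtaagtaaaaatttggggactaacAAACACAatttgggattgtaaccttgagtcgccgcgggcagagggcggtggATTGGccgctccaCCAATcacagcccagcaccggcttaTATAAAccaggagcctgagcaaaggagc
Hist1h1e: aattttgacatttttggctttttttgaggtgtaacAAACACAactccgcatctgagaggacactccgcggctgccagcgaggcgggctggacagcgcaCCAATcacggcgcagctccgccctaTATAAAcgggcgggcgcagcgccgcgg
Hist1h1c: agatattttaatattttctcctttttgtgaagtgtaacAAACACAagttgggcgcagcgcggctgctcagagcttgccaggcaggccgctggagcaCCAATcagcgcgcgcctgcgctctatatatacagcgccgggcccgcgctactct
Hist1h1d: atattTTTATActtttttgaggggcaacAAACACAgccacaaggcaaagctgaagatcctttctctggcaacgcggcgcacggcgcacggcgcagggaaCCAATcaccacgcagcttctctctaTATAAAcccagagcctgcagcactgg
Hist1h1a: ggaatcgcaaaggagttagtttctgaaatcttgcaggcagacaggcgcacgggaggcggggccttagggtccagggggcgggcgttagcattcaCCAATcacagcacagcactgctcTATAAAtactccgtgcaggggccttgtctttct
Hist1h2ae: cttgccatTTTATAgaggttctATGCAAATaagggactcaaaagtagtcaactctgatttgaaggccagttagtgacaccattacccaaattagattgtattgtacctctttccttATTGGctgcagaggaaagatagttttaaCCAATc

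In the 300-base windows the H1 box was found in 5 of 6 H1 promoters, in 2 of 17 H2A, 2 of 16 H2B, 0 of 10 H3 and 0 of 12 H4 promoters, and in 7.18% of all 32851 RefSeq promoters. Hist1h1a was the H1 gene without it. A CCAAT box was in all matched H1, H2A, H2B and H3 promoters (6, 17, 16 and 10) and in 3 of 12 H4 promoters, against 37.4% of all promoters. The octamer was in 7 of 17 H2A and 6 of 16 H2B promoters and in none of the other families, against 1.74% of all. These are matches of letters and not measured binding sites.

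Cells were placed in 6 stages by UMIs of marker genes, none of them a histone. Stem cells had Hlf, Mecom, Mycn, Procr, Hoxb5 and Fgd5, early progenitors had markers such as Cd34, Flt3 and Cpa3, and neutrophil progenitors had the primary granule genes Elane, Prtn3, Mpo, Ctsg and Ms4a3. Cells with the secondary granule genes Ltf, Camp, Ngp, Lcn2 and Cd177 were called late neutrophils where they also had Retnlg, Mmp8, Mmp9, Cxcr2, Ccl6 and Stfa2l1. Otherwise they were called Fcnb-high neutrophils where they had Fcnb and immature neutrophils where they did not. The stages are ranges of marker levels: doubling all thresholds moved 25.8% of control cells and 21.6% of the other cells to another stage. The sort was for Kit, and the median CD117 (Kit) tag count was 198.5 and 229.5 in stem cells but 13 and 8 in late neutrophils, control first. Stem cells numbered 256 in the control library and 56 in the other, early progenitors 235 and 62, neutrophil progenitors 594 and 656, Fcnb-high neutrophils 1702 and 1066, immature neutrophils 2089 and 2989, and late neutrophils 1407 and 1516.

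Summed histone levels were highest in Fcnb-high neutrophils and lowest in late neutrophils in both libraries. Fcnb-high neutrophils were at 4999 CPM in the control library and 5305 CPM in the Utx-labelled library. Stem cells were at 3129 and 3267 CPM, early progenitors at 2895 and 3601 CPM, and neutrophil progenitors at 2268 and 2281 CPM. Immature neutrophils were at 3030 and 3612 CPM and late neutrophils at 379 and 328 CPM. The order was therefore not a steady decline from stem cells, since the level in neutrophil progenitors was below that of the stages on either side. The neighbours in the order that the hashtag populations did not separate were stem cells, early progenitors and immature neutrophils. In control stem cells alone the hashtag populations were at 3746 and 2457 CPM.

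**Figure D2:**
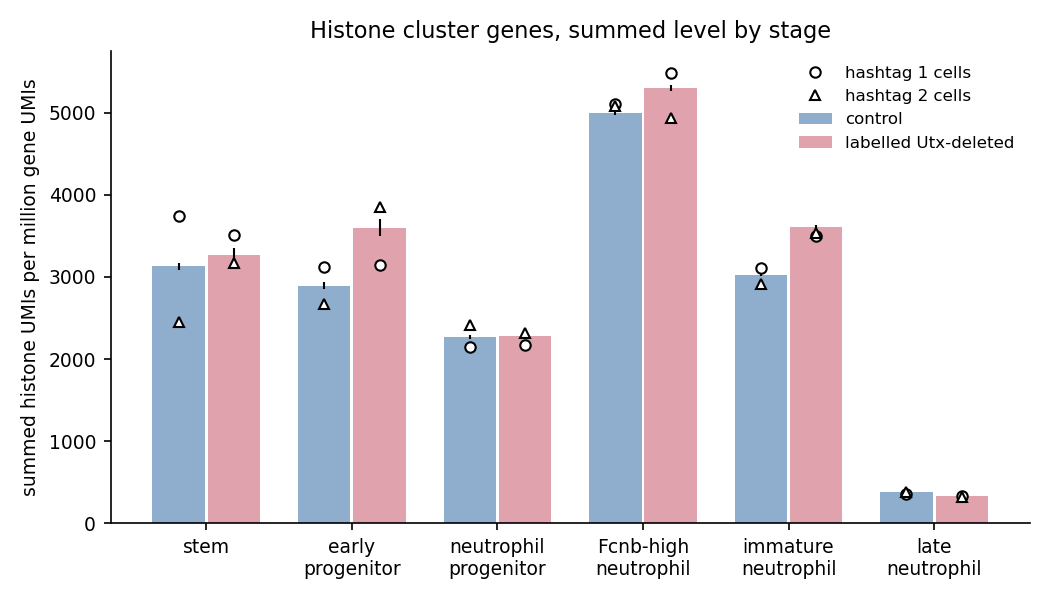
Summed UMIs of the 67 histone genes per 1000000 gene UMIs (vertical axis) in 6 stages, control and Utx-labelled. Bars are the library values with exact 95% counting intervals, and circles and triangles are the cells of hashtags 1 and 2. Fcnb-high neutrophils stand at 4999 and 5305 CPM and late neutrophils at 379 and 328 CPM.

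Between the libraries, the sum was higher in immature neutrophils of the Utx-labelled library, with a log2 ratio of 0.25 (interval 0.24 to 0.27) and hashtag ratios of 0.17 and 0.28. In early progenitors it was 0.31 (interval 0.27 to 0.36), but the hashtag ratios were 0.0089 and 0.53, and with stage thresholds halved, which left 72 and 20 cells, it was -0.30. In late neutrophils it was -0.21 (interval -0.27 to -0.14), with hashtag ratios of -0.062 and -0.28, and 0.23 when no doublets were removed. Leaving out the 4 control and 3 Utx-labelled late neutrophils with high S-phase gene levels, described below, gave -0.16. The hashtag ratios then had opposite signs, at 0.083 and -0.29. Stem cells (0.062), neutrophil progenitors (0.0083) and Fcnb-high neutrophils (0.086) each held hashtag ratios of both signs. No sum came near 2-fold in any stage.

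Single members past 2-fold within a stage were few, and each is named here. Early progenitors had 1 of 26 tested members higher and 0 lower, against 0.867% and 1.77% of genes: Hist1h2ap, at 258 and 539 CPM (log2 1.06, hashtags 0.83 and 1.21). Immature neutrophils had 1 of 55 higher and 0 lower, against 1.24% and 2.65% of genes: the H4 gene Hist1h4a, with 41 and 143 UMIs (log2 1.01, interval 0.53 to 1.58). Fcnb-high neutrophils had 0 of 55 higher and 1 lower, against 0.857% and 2.57%: the H4 gene Hist1h4f, with 81 and 23 UMIs (log2 -1.17), whose hashtag ratios were -0.34 and -2.17. Late neutrophils had 0 of 12 higher and 1 lower, against 1.19% and 3.4%: Hist1h1b, at 32.6 and 14.0 CPM, a level near the background described below. In stem cells 0 of 29 members were past 2-fold in either direction (0.858% of genes higher, 3.11% lower), and in neutrophil progenitors 0 of 45 (0.887% and 1.65%).

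At 1.5-fold the count was above the share of all genes in immature neutrophils, where 8 of 55 members were higher and 0 lower, against 4.38% and 5.8% of genes. These were Hist1h2ap (log2 0.86), Hist1h4a, Hist4h4 (0.89), Hist1h2bk (0.75), Hist2h3b (0.74), Hist1h2ae (0.65), Hist1h4h (0.64) and Hist1h2ag (0.62). In this stage 46 of 50 core genes lay above 0, with a median of 0.39, and 39 of them in both hashtag populations. Of all 10549 genes tested there 45.2% lay above 0. Early progenitors had 4 of 26 members higher and 0 lower at 1.5-fold, against 4.13% and 6.24% of genes: Hist1h2ap, Hist1h2an (0.91), Hist1h4h (0.80) and Hist1h2ae (0.68), from 62 cells of the Utx-labelled library. At the same fold, stem cells had 2 of 29 members higher and 1 lower (3.72% and 8.0% of genes), neutrophil progenitors 2 of 45 and 0 (2.78% and 4.43%), Fcnb-high neutrophils 2 of 55 and 2 (2.58% and 5.58%), and late neutrophils 1 of 12 and 1 (4.6% and 8.72%). S-phase-gene levels of the immature neutrophils, described below, were 718 CPM in the control library and 780 CPM in the other, and their part in the difference of that stage was not tested.

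The ratio of linker to core UMIs was lower in the Utx-labelled library in each of the 6 stages. Per 100 core histone UMIs there were 101 H1 UMIs in control Fcnb-high neutrophils and 70.3 in those of the Utx-labelled library. The 2 hashtag populations were at 103 and 97.4 in the control library and at 67.7 and 69.1 in the other. Immature neutrophils had 86.0 and 60.9 H1 UMIs per 100 core UMIs, neutrophil progenitors 104 and 71.8, early progenitors 83.2 and 58.0, and late neutrophils 168 and 103. In these 5 stages both hashtag values of the Utx-labelled library lay below both control values. Stem cells were the exception, at 84.9 and 69.5, where the 17 cells of hashtag 1 in the Utx-labelled library were at 90.04, above both control values of 87.5 and 80.6. Restricted to members with at least 90% unique windows the ratio was 196 and 146 in Fcnb-high neutrophils, 141 and 109 in immature neutrophils and 110 and 54.9 in late neutrophils. Both late ratios include Hist1h1b, whose late level is not read as expression, as described below.

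**Figure D3:**
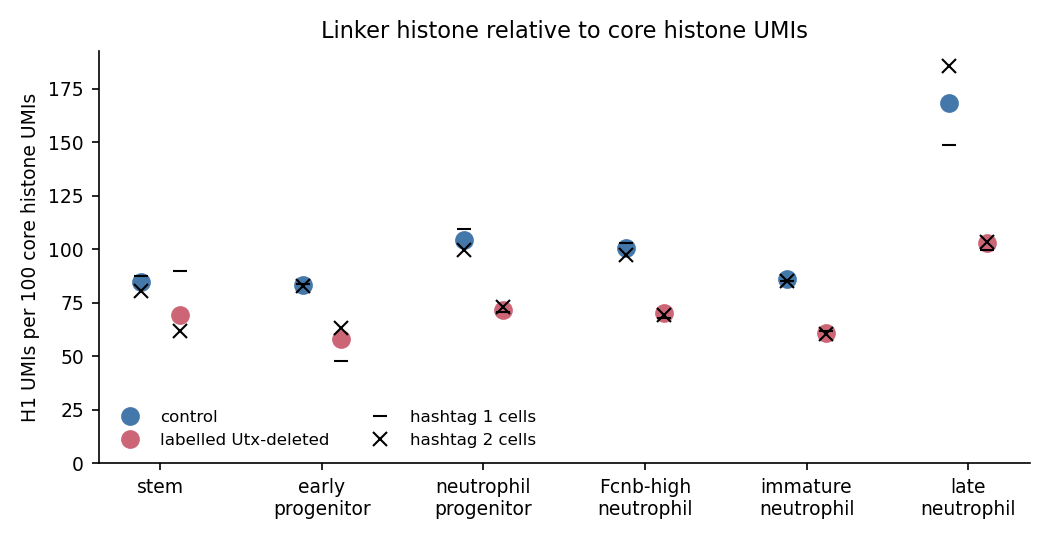
Linker H1 UMIs per 100 core histone UMIs (vertical axis) in 6 stages. Coloured points are the libraries, and dashes and crosses are the cells of hashtags 1 and 2. The values of the Utx-labelled library lie below those of control in every stage by library, and by hashtag in all but stem cells.

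The split had different parts in different stages. In Fcnb-high neutrophils all 5 H1 genes were below 0, in both hashtags, where 34.2% of all genes tested lay above 0, with Hist1h1b at 1439 and 1258 CPM and Hist1h1e at 753 and 654 CPM, while the core sum went from 2492 to 3115 CPM. In immature neutrophils 3 of 5 H1 genes were above 0 and the H1 sum was nearly level, at 1401 and 1368 CPM. Over the H1 genes with at least 90% unique windows its log2 ratio there was 0.038 (interval 0.014 to 0.063). Within cells of like S-phase gene level, described below, the sum of all H1 genes was lower in this stage. Its log2 ratio was -0.17 in S-phase-gene-high and -0.13 in S-phase-gene-low cells, below 0 in both hashtags. The part of the S-phase-gene-high share in the nearly level sum was not tested. The core sum of this stage went from 1629 to 2244 CPM (log2 0.46). In late neutrophils the H1 sum was lower, at 238 and 166 CPM (log2 -0.51, interval -0.60 to -0.42), and the core sum was at 141 and 161 CPM. The late sums include Hist1h1b (32.6 and 14.0 CPM) and Hist1h2ap (16.4 and 17.4 CPM), whose late levels are not read as expression, as described below. The late log2 ratio was -0.44 for Hist1h1e and -0.40 for Hist1h1c. In stem cells the H1 genes were 2 above and 3 below 0, with Hist1h1c at 90.7 and 51.6 CPM as the lowest ratio (log2 -0.80, interval -1.17 to -0.47).

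Hist1h2ap was above 1.5-fold in 5 of the 6 stages. It was at 305 and 501 CPM in stem cells, 258 and 539 CPM in early progenitors, 208 and 319 CPM in neutrophil progenitors, 608 and 994 CPM in Fcnb-high neutrophils and 344 and 624 CPM in immature neutrophils. Both hashtag ratios were above 0 in each of these stages, and the smallest was 0.23, in stem cells. In late neutrophils it was at 16.4 and 17.4 CPM (log2 0.084, interval -0.23 to 0.40). Hist1h2ae, the H2A gene with 92.9% unique windows, was also above 0 in the first 5 stages, at smaller size, with log2 ratios of 0.38, 0.68, 0.20, 0.45, 0.65 and -0.093 from stem cells to late neutrophils. Without the late neutrophils that were S-phase-gene-high, 4 control cells and 3 of the other library, the late ratio was 0.34 (interval 0.011 to 0.67) for Hist1h2ap and 0.14 (interval -0.53 to 0.83) for Hist1h2ae. Hist1h2ap stood in late neutrophils at 2.69% and 1.75% of its Fcnb-high level and Hist1h2ae at 1.57% and 1.08%, within or below the range of the G2/M genes given below, so these late ratios are not read as expression.

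**Figure D4:**
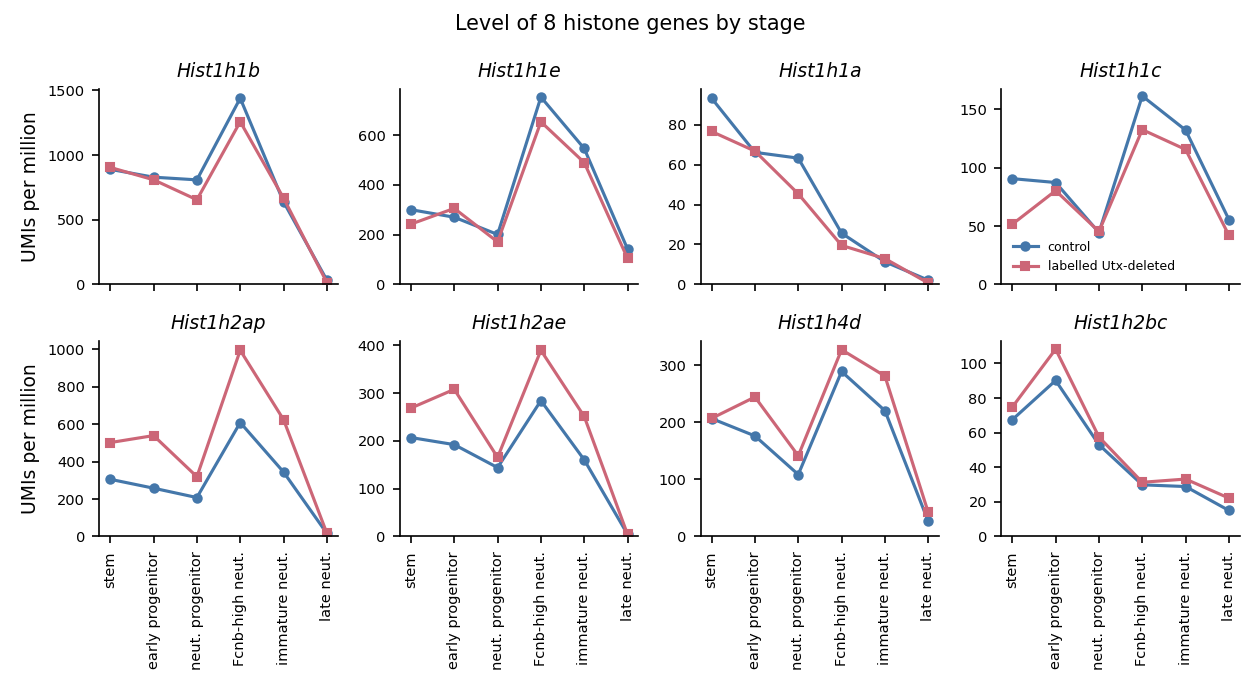
UMIs per 1000000 gene UMIs (vertical axes, each panel on its own scale from 0) of 8 histone genes in 6 stages, control in blue circles and Utx-labelled in red squares. Hist1h1a peaks in stem cells at 93.4 and 76.7 CPM and Hist1h2bc in early progenitors at 90.1 and 108 CPM, while the other 6 peak in Fcnb-high neutrophils.

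Members did not all follow the sum across stages. Of the 62 members, 43 in the control library and 38 in the other were highest in Fcnb-high neutrophils, 34 of them in both libraries. Hist1h1a went the other way, at 93.4 and 76.7 CPM in stem cells, 66.2 and 66.8 CPM in early progenitors, 63.3 and 45.4 CPM in neutrophil progenitors, and 25.7 and 19.5 CPM in Fcnb-high neutrophils. Its stem level was 3.64 and 3.93 times its Fcnb-high level. In immature neutrophils Hist1h1a was at 11.3 and 12.9 CPM. Its log2 ratios in these stages, in the order given, were -0.27, 0.026, -0.48, -0.39 and 0.19, where over all cells it was -0.58. The H2B gene Hist1h2bc was at 67.5 and 74.8 CPM in stem cells and 29.8 and 31.3 CPM in Fcnb-high neutrophils, and the H2A gene Hist3h2a at 14.3 and 16.8 CPM and at 4.42 and 4.98 CPM. Both of these have a transcript end that is unique among annotated transcripts.

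In late neutrophils a small set of members kept most of the remaining signal. The median member stood at 3.78% of its own Fcnb-high level in the control library and at 3.41% in the other. Hist1h1e remained at 142 and 104 CPM (18.9% and 15.98% of its Fcnb-high level), Hist1h1c at 55.5 and 42.0 CPM (34.4% and 31.7%), and Hist1h4d at 26.6 and 42.3 CPM (9.21% and 12.9%). Hist1h2bc, at 15.0 and 22.2 CPM, kept 50.3% and 70.8%, and Hist3h2a, at 5.34 and 6.76 CPM, 121% and 136%. In late neutrophils with low S-phase gene levels, 1403 and 1513 cells, Hist1h1b was at 28.3 and 13.7 CPM (log2 -1.05, interval -1.34 to -0.76). The G2/M genes, which cells that do not divide should lack, stood in late neutrophils at a median of 2.68% and 1.92% of their Fcnb-high level, from 1.68% (Tpx2) to 3.83% (Ccnb1) in the control library and from 0.912% (Cenpe) to 3.52% (Aurka) in the other. Hist1h1b, at 2.27% and 1.12%, lies within these ranges, so its late level and late ratio are not read as expression. The part of RNA from other cells in the late levels was not tested.

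Members with long annotated ends were among those that remained. The 21 tested members whose transcript runs over 100 bases past the stem-loop had a median of 9.21% and 12.9% of the Fcnb-high level in late neutrophils. The 21 that end within 100 bases had 3.16% and 2.65%, and the 20 with no stem-loop in the annotated transcript had 3.004% and 1.34%. The medians of the short-end group and of the group with no stem-loop lie within the G2/M ranges given above. They are not read as expression. In Hist1h1e the annotated transcript runs 1153 bases past the stem-loop, in Hist1h1c 840 and in Hist1h4d 770, whereas it runs 3 in Hist1h2ap. Single genes went against these medians. Hist1h1d has the longest end, 4884 bases, and stood at 4.13% and 4.0% of its Fcnb-high level. Hist1h4m, an H4 gene that ends 3 bases past the stem-loop, stood at 18.97% and 15.6%, and the H2A gene Hist2h2aa1, with 35 bases, at 25.1% and 37.2%, both with 0% unique windows. The groups overlap widely in level, from 0.453 to 434 CPM for the long ends and 0.888 to 340 CPM for the short ones in the control library.

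In Fcnb-high and immature neutrophils histone levels were higher in cells with more UMIs of S-phase genes, a list of 24 replication genes with no histone in it, up to a middle range. Among Fcnb-high neutrophils, cells with under 1 S-phase gene UMI per 10000 were at 386 CPM of summed histone in the control library and 374 CPM in the other. Cells at 12 to 24 were at 8372 and 7826 CPM, those at 24 to 48 at 7041 and 8635 CPM, and those at 48 or more at 3767 and 4238 CPM, the last from 62 and 13 cells. Immature neutrophils went from 361 and 356 CPM to 7896 and 8002 CPM at 12 to 24. In Fcnb-high neutrophils both libraries were low at under 1 S-phase gene UMI per 10000 and lower again at the top. The bin with the highest level was 12 to 24 in the control library and 24 to 48 in the other. Cells counted as S-phase-gene-high, at 12 or more per 10000, also had more UMIs in all, with medians of 16602 against 12622 in control Fcnb-high neutrophils and 16859 against 11750 in the other library. The part of depth in these differences was not tested.

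**Figure D5:**
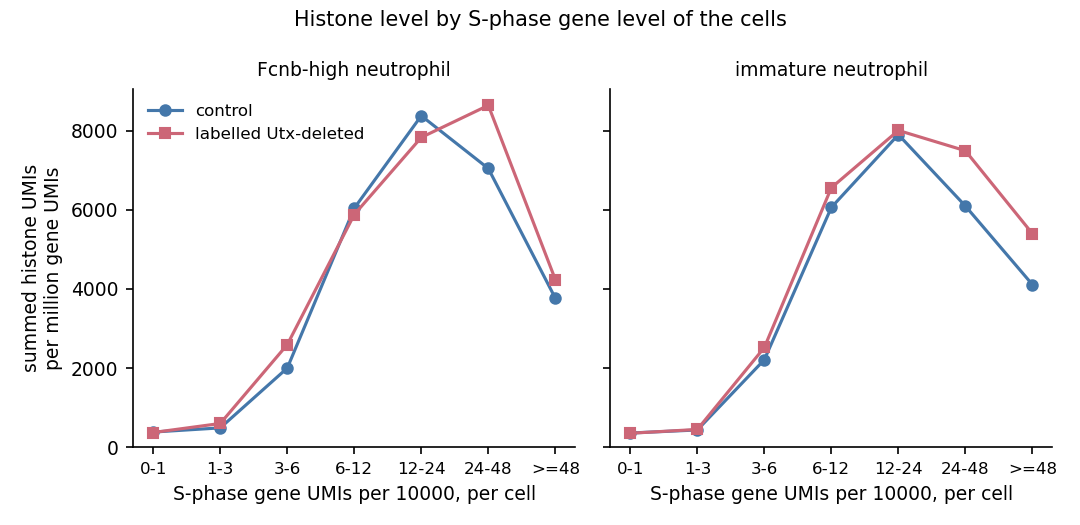
Summed histone UMIs per 1000000 gene UMIs (vertical axis) in cells binned by their S-phase gene UMIs per 10000 (horizontal axis), for Fcnb-high and immature neutrophils, control and Utx-labelled. Fcnb-high neutrophils run from 386 and 374 CPM in the lowest bin to 8372 and 7826 CPM at 12 to 24, and the highest bin holds 62 and 13 Fcnb-high and 11 and 8 immature neutrophils.

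The gap between S-phase-gene-high and -low cells was smaller in neutrophil progenitors, where high cells were at 2416 and 2623 CPM and low cells at 1319 and 1457 CPM. In Fcnb-high neutrophils they were at 7338 and 8140 CPM against 2603 and 2356 CPM, and in immature neutrophils at 7174 and 7827 CPM against 1974 and 2182 CPM. Early progenitors went opposite ways in the libraries. Control high cells were at 2727 CPM and low cells at 3249 CPM, a ratio of 0.839, while Utx-labelled high cells were at 4129 CPM and low cells at 2975 CPM, a ratio of 1.39 from 27 and 35 cells. Stem cells had ratios of 1.93 and 1.18. S-phase-gene-high cells made up 85.7% and 68.0% of neutrophil progenitors, 45.8% and 43.2% of Fcnb-high neutrophils, and 13.8% and 17.1% of immature neutrophils, control first. Neutrophil progenitors therefore had the highest share of S-phase-gene-high cells of these stages and the lowest summed histone level. With each cell thinned to 2000 UMIs, 40.0% of control Fcnb-high neutrophils (interval 37.6 to 42.4) and 36.8% of the others (33.9 to 39.8) had 10 or more histone UMIs, against 17.9% (14.9 to 21.3) and 16.4% (13.6 to 19.4) of neutrophil progenitors. The unthinned shares of cells with at least 0.5% histone UMIs were 40.0% and 36.8%, and 17.8% and 17.2%.

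Within S-phase-gene-high cells the sum had log2 ratios of 0.15 (interval 0.14 to 0.16) in Fcnb-high neutrophils, 0.13 in immature neutrophils and 0.12 in neutrophil progenitors, all above 0 in both hashtags. With the S-phase threshold doubled these were 0.34, 0.32 and 0.30. Early progenitors were at 0.60 from 133 and 27 cells. Stem cells were at -0.13 from 155 and 38 cells, with hashtag ratios of -0.42 and 0.32, and at 0.24 with the S-phase threshold doubled. In the 3 neutrophil stages named first, H1 was below 0 and core above 0 in these cells. Early progenitors and stem cells did not have these opposite signs, though by library H1 was lower relative to core in both. Stem cells of hashtag 1 went the other way, with H1 at -0.33 and core at -0.52. In early progenitors H1 was higher as well (log2 0.24, interval 0.14 to 0.33), with core at 0.89. In stem cells H1 was at -0.28 and core at -0.0076, each with hashtag ratios of both signs. Neutrophil progenitors had H1 at -0.16 and core at 0.37. In S-phase-gene-high Fcnb-high neutrophils H1 was at 3746 and 3380 CPM (log2 -0.15) and core at 3592 and 4760 CPM (log2 0.41). In S-phase-gene-high immature neutrophils H1 was at 3288 and 2919 CPM (log2 -0.17) and core at 3886 and 4908 CPM (log2 0.34). Both hashtag ratios had these signs in both stages. In S-phase-gene-low immature neutrophils H1 was at -0.13 and core at 0.35, with the same signs in both hashtags. In S-phase-gene-low Fcnb-high neutrophils H1 was at -0.38 and core at 0.039, with core hashtag ratios of 0.19 and -0.19. In S-phase-gene-low neutrophil progenitors H1 was at -0.023 and core at 0.25, each with hashtag ratios of both signs.

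Single members differed in how closely they followed the S-phase genes. In Fcnb-high neutrophils 59 tested members had at least 20 UMIs in each library, and 57 of them were higher in S-phase-gene-high cells in both libraries, 48 by over 2-fold, with median ratios of 2.46 and 3.06. Of the 10394 genes with as many UMIs, 48.7% were higher in both libraries and 8.95% by over 2-fold, with medians of 1.07 and 1.05. Hist1h1a had the largest ratios of the named members, at 46.4 CPM in high and 4.44 CPM in low control cells, a ratio of 10.5, and 16.9 in the other library. Hist1h1b had ratios of 4.03 and 4.86, Hist1h2ae 3.80 and 5.15 and Hist1h2ap 3.55 and 4.80, while Hist1h1e had 2.09 and 2.42, Hist1h4d 1.88 and 2.12 and Hist1h1c 1.74 and 1.84. The 2 members not higher were Hist1h2bc (0.965 and 0.766) and Hist3h2a (0.870 and 0.769). The same 2 genes also kept much of their level in late neutrophils. These ratios compare cells of the same 2 libraries and have no replicate check.

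Genes around the histone pathway mostly lay below 0 over all cells, where 29.5% of all genes tested lay above 0 and the median of all was -0.11. Over all cells 0 of 24 S-phase genes were past 2-fold, all 24 were below 0 and the median log2 ratio was -0.34, from -0.58 (Chek1, a checkpoint kinase) to -0.099 (Ccne1, cyclin E). All 16 G2/M genes were below 0, with a median of -0.21. Of 22 genes of histone mRNA transcription and processing 21 were below 0 and 0 past 2-fold, with a median of -0.16, from Cpsf2 (-0.32), a subunit of the cleavage complex, to Hinfp (0.044), a transcription factor of H4 genes. Slbp, which binds the stem-loop, was at 147 and 129 CPM, and Npat, the coactivator of histone genes, at 32.8 and 27.7 CPM. All 16 genes of histone chaperones and import were below 0 (median -0.22, from Chaf1b at -0.53 to Daxx at -0.035).

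With TMM scaling, where 51.9% of all genes lay above 0, 1 of the 24 S-phase genes, 1 of the 16 G2/M genes, 10 of the 22 processing genes and 3 of the 16 chaperone genes were above 0, and the medians were -0.22, -0.082, -0.034 and -0.097. Of 11 histone genes listed as replication-independent, 9 were below 0 without TMM scaling. With it 5 of the 11 were above 0, at a median of -0.020. Without the scaling 1 of them was past 2-fold, where 1.39% of all genes were higher and 5.36% lower. It was the linker gene H1fx, at a log2 ratio of -1.22, while the macroH2A gene H2afy2 was highest at 0.64. H1fx was at 91.2 and 98.0 CPM in stem cells, 77.8 and 65.3 CPM in early progenitors, 27.1 and 18.2 CPM in neutrophil progenitors, and 40.5 and 15.8 CPM in cells left to other lineages. Within stages the summed S-phase genes were not all lower: they were at 2185 CPM in control and 2310 CPM in Utx-labelled stem cells, and at 1686 and 1454 CPM in Fcnb-high neutrophils.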

How the data were processed

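Raw counts of UMIs per feature and cell barcode were used as deposited by the authors, for 32285 genes and 15 antibody tags in 2 libraries. The submitters' processing notes name Cell Ranger 7.1.0 and mm10; the annotation is not given in the sources used here. Counts on overlapping or near-identical genes follow the authors' counting, whose strand and multi-mapping settings are not stated.

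Cells with at least 500 genes and under 10% mitochondrial UMIs were kept (349 and 214 barcodes left out). As likely doublets the top 6% of Scrublet scores in each library were left out (467 and 463 cells), a fixed share that need not hold all doublets. Of the kept cells 204 and 451 carried both hashtags. A hashtag was called at 100 or more UMIs and at least 5 times the other.

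UMIs were summed over the cells of a library, or of a stage, and divided by gene UMIs. The log2 ratio is the Utx-labelled library over control, with 1 UMI added per gene, and with no addition for sums; members with at least 100 UMIs entered the counts past 2-fold. Stage thresholds, in marker UMIs per 10000, were 100 for secondary granule genes, 50 for late neutrophil genes, 5 for Fcnb, 50 for neutrophil progenitor, 4 for stem and 4 for early progenitor genes; cells at 8 or more for monocyte, megakaryocyte, erythroid or basophil markers, or 16 or more for B, dendritic, T or NK cell or macrophage markers, were left to other lineages (690 and 839 cells), and 38 and 22 cells stayed unassigned. All thresholds, and that of 12 for S-phase genes, were set after the marker UMIs of both libraries together had been seen, with no histone UMI read. Members and lists were chosen with earlier results of these data known. Named in full are the 5 members with most UMIs, the 3 highest and 3 lowest ratios, and each member past 2-fold; members named for their stage pattern were chosen after their values were seen.

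All 67 gene IDs are in GENCODE M21, which supplied coordinates and transcripts. RefSeq promoters (GRCm38.p6) were matched by symbol or gene ID. Tools were Python 3.11.15, scanpy 1.11.5, scipy 1.17.1 and edgeR 4.0.16, the last for TMM factors only. The ratio rule was tested on simulated counts over all cells and recovered most of the known changes. Alternatives were the cell filter, doublet removal, hashtags, TMM scaling, stage weights, thinning, UMI minimums, a 1.5-fold threshold, and stage and S-phase thresholds doubled or halved. Added after the data were seen were the same alternatives for the linker and core sums and weights for stage and S-phase gene level together.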

Additional observations from a re-analysis of the deposited data

Results flagged for a closer look

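Stages differed in the direction of the summed histone ratio between the libraries. The log2 ratio of the Utx-labelled library over control was 0.31 in early progenitors (hashtags 0.0089 and 0.53) and 0.25 in immature neutrophils (hashtags 0.17 and 0.28), both above 0 in each hashtag population. In late neutrophils it was -0.21 (hashtags -0.062 and -0.28), below 0 in each. Without the S-phase-gene-high late neutrophils it was -0.16, and the hashtags had opposite signs (0.083 and -0.29). The difference between stages was not tested, since each stage comes from the same 2 libraries. The early progenitor value comes from 235 and 62 cells and was -0.30 with stage thresholds halved, and the late neutrophil value was 0.23 without doublet removal, so both directions turned under 1 alternative.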

How the results depend on the processing

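Over all cells the summed log2 ratio of 0.018 was 0.049 without doublet removal, 0.14 with TMM scaling, 0.14 with the same stage weights, 0.14 with the same stage and S-phase weights and 0.12 without Hist1h1b, and below 0 without barcodes of both hashtags (-0.037), in hashtag 1 (-0.050), in hashtag 2 (-0.023) and thinned (-0.011). The linker H1 sum (-0.27) stayed below 0 in each alternative run, at -0.23 without doublet removal, -0.32 without both-hashtag barcodes, -0.37 in hashtag 1, -0.14 with TMM scaling, and -0.13 with stage weights or stage and S-phase weights. The core sum (0.25) stayed above 0 in each, at 0.27, 0.19, 0.21, 0.37, 0.35 and 0.34 in that order, and 0.17 in hashtag 2. The count of members past 2-fold stayed at 0 in each alternative except the 1.5-fold threshold, where it was 1.

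By hashtag, with hashtag 1 before hashtag 2, the summed ratio was -0.091 and 0.37 in stem cells, 0.0089 and 0.53 in early progenitors, 0.10 and -0.041 in Fcnb-high neutrophils, 0.17 and 0.28 in immature and -0.062 and -0.28 in late neutrophils, and -0.059 for hashtag 2 in neutrophil progenitors. Thinned to 2000 UMIs it was 0.41 in stem cells, 0.24 in early and -0.063 in neutrophil progenitors, 0.047 in Fcnb-high and 0.28 in immature neutrophils. With stage thresholds doubled it was 0.14 in early progenitors, 0.067 in Fcnb-high, 0.15 in immature and -0.11 in late neutrophils, and with thresholds halved -0.30 in early progenitors, -0.022 in neutrophil progenitors, 0.34 in immature and -0.089 in late neutrophils. Without doublet removal it was 0.12 in Fcnb-high and 0.23 in late neutrophils, and without both-hashtag barcodes 0.030 in Fcnb-high and 0.22 in immature neutrophils.

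In S-phase-gene-high cells, with the threshold doubled, halved, and thinned, the ratio was 0.24, -0.016 and 0.22 in stem cells, 0.77, 0.37 and 0.50 in early progenitors, 0.30, 0.080 and 0.086 in neutrophil progenitors, and 0.34, 0.12 and 0.21 in Fcnb-high neutrophils; in immature neutrophils it was 0.32 with the threshold doubled. The cause of these shifts was not tested. Values moved here by more than their counting interval, which is narrow for such sums. No paired analysis was possible because each group has 1 library.

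Limits are the single library per group, the poly(A) capture of RNAs that mostly lack a poly(A) tail, the shared sequence of many members, the 56 stem cells and 62 early progenitors of the Utx-labelled library, and hashtags whose meaning is not stated. Fewer cells of a stage and less RNA per cell cannot be told apart in sums over all cells.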
